A study of Mus musculus with 16 samples.

Results

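The genes described here are 6 that were grouped as lymph node homing and egress molecules: Ccr7, S1pr1, S1pr4, Cd69, Cd7 and Cd44. They were taken by gene name from a table of 54532 genes, and each of the 6 names matched 1 gene. The libraries were bulk RNA-seq of mouse TCF1+CD8+ T cells, made from C57BL/6J splenic naive CD8+ T cells in a culture of 4 days with repeated activation. For 4 h, the cells of all 16 libraries received IL-2 at a low dose of 85 U per ml, with or without anti-CD3/CD28 beads at 1 bead per cell, after 1 h with or without prostaglandin E2 (PGE2) at 100 ng per ml. This gave 4 groups of 4 libraries: unstimulated untreated (IL-2 alone), unstimulated PGE2-treated, stimulated untreated (IL-2 and beads) and stimulated PGE2-treated. "Unstimulated" means only that no beads were added, since these cells had been activated earlier in the culture. The age and sex of the mice were not given in the labels, which also do not say whether replicates came from separate mice or cultures, so p-values measure only the spread between these libraries.

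CCR7 is the chemokine receptor that guides naive and central memory T cells into lymph nodes towards CCL19 and CCL21. Once inside, a T cell leaves by following sphingosine-1-phosphate (S1P), the lipid that S1PR1 and S1PR4 bind, and CD69 holds S1PR1 inside the cell and so blocks exit. CD44 is a hyaluronan receptor used in adhesion and is high on antigen-experienced T cells, and CD7 is an immunoglobulin-family surface molecule of T and NK cells. Activation of a T cell through its antigen receptor is known to raise CD69 and CD44 and to lower S1PR1. PGE2 signals through EP2 and EP4 receptors, which raise cyclic AMP in the cell.

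Library totals ranged from 22678254 to 42950763 assigned reads (median 30211840.5). All 6 CD8+ T cell markers were present in every group, with Cd8a at 719 to 1151 assigned reads per 1000000 (CPM, TMM-scaled) as group means, and Tcf7, which encodes TCF1, at 1175 CPM in unstimulated untreated and 309 CPM in stimulated untreated cells. Cd4 stayed under 1 CPM, at 0.629 CPM at most as a group mean, and the NK markers Ncr1 and Klra8 were at 0 in each group. The summed level of 4 CD4 T cell markers was 27.4 to 34.9 CPM in unstimulated untreated and 29.0 to 40.6 CPM in unstimulated PGE2-treated libraries. In stimulated libraries it was 19.7 to 24.8 CPM without and 18.0 to 27.6 CPM with PGE2. Most of it came from Zbtb7b, at 15 to 27.3 CPM as group means, and Foxp3 was at 4.24 to 5.93 CPM. The summed level of 5 B cell markers was 12.0 to 21.0 CPM in unstimulated untreated, 10.1 to 17.1 in unstimulated PGE2-treated, 4.92 to 11.7 in stimulated untreated and 4.47 to 9.78 in stimulated PGE2-treated libraries, mostly from Cd79b. Of 7 stromal and endothelial markers, Col3a1, Ccl21a and Ccl19 were at 0 in all groups. Pecam1, which T cells can also express, was the only one of the 7 at 1 CPM or more, and the summed level of the 7 was 97.7 to 121, 133 to 165, 47.8 to 51.9 and 65.8 to 77.0 CPM in the same group order. The part of these markers in the results was not tested. In bulk samples, fewer cells of a type and less RNA per cell cannot be told apart.

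In stimulated cells, PGE2 went with higher RNA of the lymph node entry receptor and of both S1P receptors. Ccr7 rose 2.66-fold, S1pr1 2.13-fold, S1pr4 1.69-fold and Cd7 2.51-fold. Of the 6 genes, 4 were higher at an adjusted p under 0.05 in edgeR's quasi-likelihood test, where 6.04% of the 13922 tested genes were higher, and 0 were lower, where 3.8% were. DESeq2 gave the same counts, 4 and 0, as did an unadjusted p under 0.05 in edgeR. With a change of at least 2-fold as well, 3 of the 6 were called (Ccr7, S1pr1 and Cd7), against 1.75% of all tested genes. In other libraries, of tumour-infiltrating CD8+ T cells, the study's text names Ccr7 and S1pr1 for different TCF1+ clusters. It names Cd7 for an early effector-like cluster without Tcf7, and reports Cd44 in all of its clusters. The 6 genes were chosen with earlier results of these data known, so their direction is not independent evidence.

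Ccr7 (ENSMUSG00000037944) lies on the minus strand of GRCm38 chromosome 11, at chr11:99144196-99155077. It was at 372, 388, 515 and 592 CPM in stimulated untreated replicates 1 to 4, and at 1004, 1037, 1404 and 1505 CPM in the matching PGE2-treated libraries. The groups did not overlap, and in both of them replicates 3 and 4 stood above replicates 1 and 2. The log2 fold change was 1.41 (SE 0.183, edgeR adjusted p = 0.00153). Within a replicate number the ratio with to without PGE2 was 2.54 to 2.72, a narrower range than the levels themselves.

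S1pr1 (ENSMUSG00000045092; GRCm38, minus strand, chr3:115710433-115715072) encodes the main egress receptor of T cells. Its level was low in stimulated cells, at 35.9, 29.2, 26.5 and 25.0 CPM in untreated replicates 1 to 4. With PGE2 the same replicates were at 66.6, 57.9, 64.1 and 58.9 CPM, above all 4 untreated libraries. The log2 fold change was 1.09 (SE 0.107, edgeR adjusted p = 0.00036), and the ratio within a replicate number was 1.86 to 2.42.

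S1pr4 (ENSMUSG00000044199; GRCm38, minus strand, chr10:81497747-81500132) encodes a second S1P receptor of lymphocytes. It was at 41.8, 37.8, 48.0 and 47.8 CPM without PGE2 and at 63.5, 60.9, 82.4 and 88.7 CPM with it. The groups did not overlap, and the log2 difference was 0.76 (SE 0.134, edgeR adjusted p = 0.00723), which is below 2-fold. The annotated S1pr1 and S1pr4 transcripts share no exact run longer than 13 bases.

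Cd7 (ENSMUSG00000025163; GRCm38, minus strand, chr11:121036747-121039418) had the lowest counts of the 6 genes in both stimulated groups. It was at 15.2, 11.5, 13.9 and 10.7 CPM without PGE2 and at 35.1, 31.6, 34.3 and 27.3 CPM with it, with no overlap. The log2 fold change was 1.32 (SE 0.125, edgeR adjusted p = 0.000304). An antisense gene, Gm11775, shares 122 of its exon bases but held 0 reads in the 16 libraries.

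The retention molecule and the hyaluronan receptor lay lower with PGE2 in stimulated cells without passing the test. Cd69 (ENSMUSG00000030156; GRCm38, minus strand, chr6:129267325-129275436) was at 589, 490, 385 and 324 CPM without PGE2 and at 427, 366, 240 and 149 CPM with it. The groups overlapped, and the log2 fold change was -0.59 (95% interval -1.25 to 0.07, edgeR adjusted p = 0.229). Cd44 (ENSMUSG00000005087; GRCm38, minus strand, chr2:102811141-102901665) was at 691, 602, 483 and 467 CPM without PGE2 and at 552, 489, 339 and 309 CPM with it. These groups overlapped too, with a log2 fold change of -0.40 (95% interval -0.83 to 0.03, edgeR adjusted p = 0.212). Each PGE2-treated library was nevertheless below the untreated library of its own number for both genes, at ratios of 0.459 to 0.748 for Cd69 and 0.661 to 0.813 for Cd44. When edgeR was fitted with a block for replicate number, Cd69 (log2 fold change -0.66, adjusted p = 0.000474) and Cd44 (log2 fold change -0.42, adjusted p = 0.00029) passed as lower. The blocked fit also called far more genes in all, 19.1% of those tested as higher and 20.7% as lower.

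**Figure D1:**
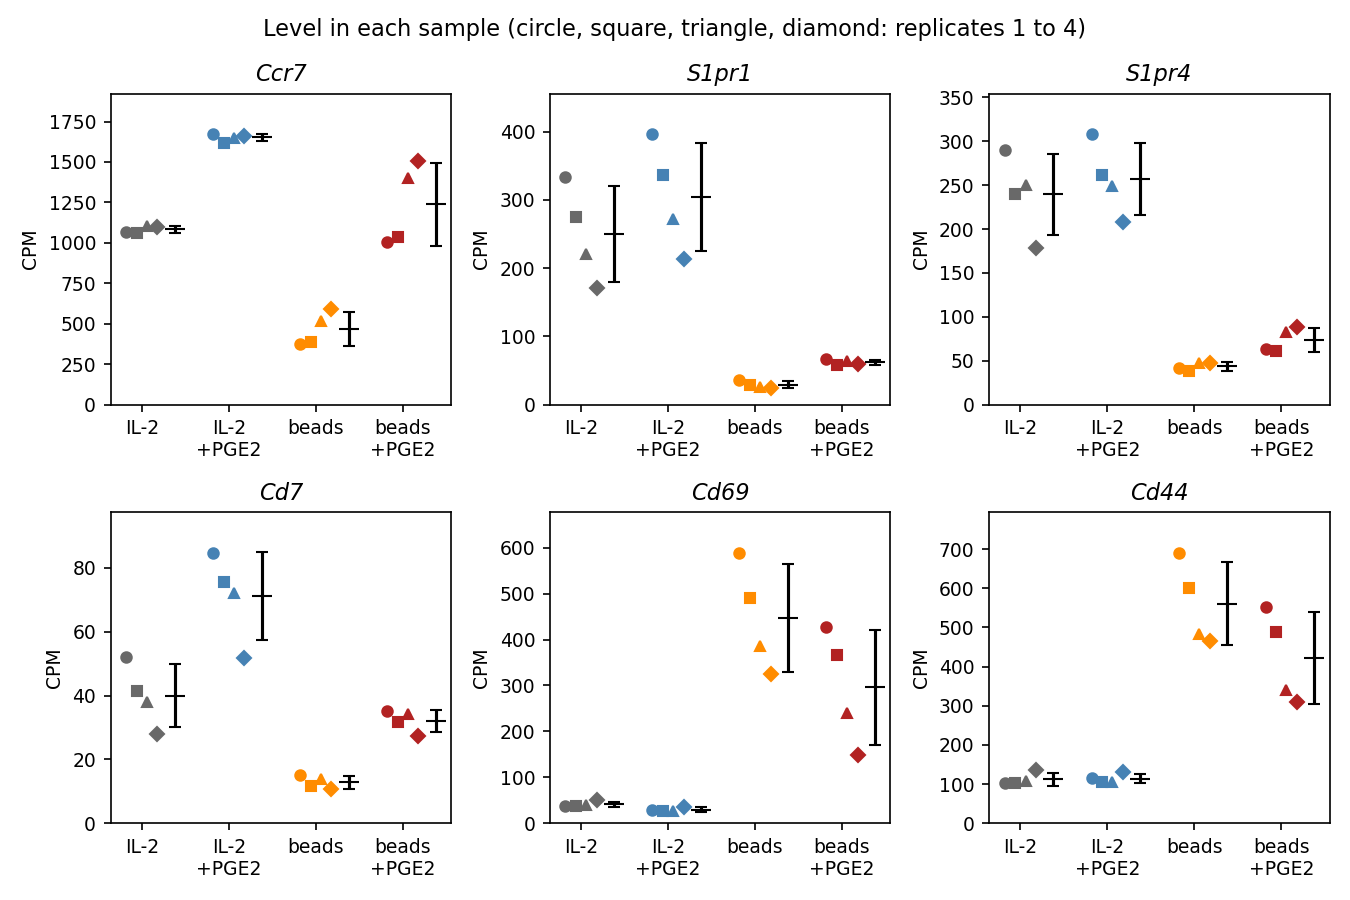
CPM of each gene (vertical axes, linear from 0) in the 16 libraries, by group, with markers for replicates 1 to 4 and black bars for mean ± SD (n = 4). "IL-2" is unstimulated and "beads" is stimulated; Ccr7, S1pr1, S1pr4 and Cd7 do not overlap between the stimulated groups, while Cd69 and Cd44 do.

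In unstimulated cells, the same PGE2 treatment went with smaller differences. Ccr7 rose 1.55-fold and Cd7 1.81-fold, and Cd69 fell to 0.732 times its untreated level, while the S1P receptors and Cd44 did not pass the test. Thus 2 of the 6 genes were higher, where 12.9% of 14505 tested genes were, and 1 was lower, where 15.5% were. Called at 2-fold were 0 of the 6, in edgeR (also at an unadjusted p under 0.05) and in DESeq2, against 3.38% of all tested genes.

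Ccr7 was tightly grouped in unstimulated cells. It was at 1068, 1060, 1107 and 1096 CPM without PGE2 and at 1672, 1620, 1651 and 1663 CPM with it. No library of one group came near the other, and the log2 fold change was 0.63 (SE 0.0540, edgeR adjusted p = 1.42e-05). The SD was 2.09% of the mean in untreated and 1.38% in PGE2-treated cells, against 22.5% and 20.5% in the stimulated groups.

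Cd7 was at 52.0, 41.5, 37.9 and 28.1 CPM without PGE2 and at 84.8, 75.5, 72.3 and 51.9 CPM with it. Only PGE2-treated replicate 4 fell within the untreated range, and the log2 fold change was 0.86 (SE 0.174, edgeR adjusted p = 0.00348). Cd69 was at 38.0, 37.9, 38.7 and 50.1 CPM without PGE2 and at 28.6, 26.9, 27.1 and 36.3 CPM with it. In both groups replicate 4 was the highest, the groups did not overlap, and the log2 fold change was -0.45 (SE 0.119, edgeR adjusted p = 0.0149). This call was lost without unstimulated PGE2-treated replicate 2 (log2 fold change -0.39, adjusted p = 0.0554), in 1 fit of all 16 libraries (adjusted p = 0.194) and in an unfiltered limma fit of log2(FPKM + 1) (adjusted p = 0.0649).

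S1pr1 varied more between replicate numbers than with PGE2 in unstimulated cells. It was at 333, 274, 221 and 170 CPM without PGE2 and at 396, 336, 272 and 213 CPM with it. The groups overlapped widely and the log2 fold change was 0.30 (95% interval -0.14 to 0.75, edgeR adjusted p = 0.306). Within each replicate number, however, the ratio was close to constant, at 1.19 to 1.25.

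S1pr4 was at 290, 240, 250 and 179 CPM without PGE2 and at 308, 262, 249 and 208 CPM with it (log2 fold change 0.12, 95% interval -0.18 to 0.42, edgeR adjusted p = 0.571). Cd44 was at 103, 102, 107 and 136 CPM and at 114, 106, 104 and 131 CPM (log2 fold change 0.04, 95% interval -0.18 to 0.27, edgeR adjusted p = 0.806). Both genes overlapped between the groups over most of their range. With the replicate block, S1pr1 (0.31, adjusted p = 2.20e-06) and S1pr4 (0.13, adjusted p = 0.0141) passed as higher in edgeR, Cd44 did not (adjusted p = 0.348), and the calls among the 6 went from 3 to 5. In that fit 23.6% of all tested genes were higher and 24.2% lower.

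**Figure D2:**
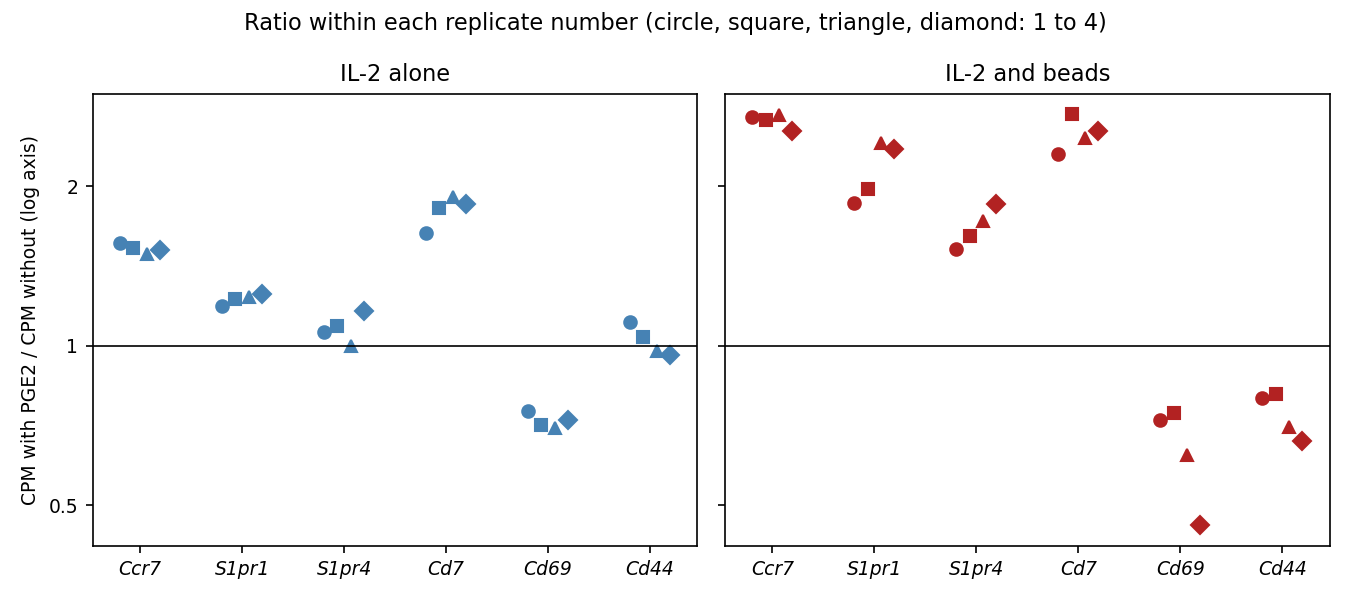
Ratio of CPM with PGE2 to CPM without (vertical axis, log scale), in unstimulated (left) and stimulated cells (right), 1 point for each replicate number. Ccr7 lies between 1.49 and 1.57 on the left and between 2.54 and 2.72 on the right, and Cd69 lies below 1 in all 8 pairs.

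Whether the PGE2 difference itself depended on stimulation was tested as an interaction over the 16 libraries. None of the 6 genes passed in the main edgeR fit, which had no replicate block and where 0.749% of 15096 tested genes did. At an unadjusted p under 0.05 there were 3: Ccr7 (0.80 more on the log2 scale in stimulated cells, SE 0.195, adjusted p = 0.0695), S1pr1 (0.80, SE 0.267, adjusted p = 0.256) and S1pr4 (0.65, SE 0.212, adjusted p = 0.235). By edgeR's p these ranked 156, 486 and 435 of the 15096 tested genes. The gene at rank 1383, Gna12, still had an unadjusted p of 0.0483, so that threshold is a loose one. DESeq2's Wald test called 1 of the 6, Ccr7 (0.78, adjusted p = 0.00406). The other members gave 0.48 for Cd7 (adjusted p = 0.583), -0.13 for Cd69 (adjusted p = 0.976) and -0.43 for Cd44 (adjusted p = 0.647) in edgeR. Ccr7 also passed in edgeR without stimulated untreated replicate 4 (adjusted p = 0.0222), without stimulated PGE2-treated replicate 1 (adjusted p = 0.0377) and with no filter on low counts (adjusted p = 0.0130). With the replicate block Ccr7 (0.80, adjusted p = 0.00773), S1pr1 (0.82, adjusted p = 0.00914) and Cd7 (0.48, adjusted p = 0.0377) passed in edgeR. Same-numbered deviations correlated at as little as 0.0439 for stimulation with PGE2. For stimulated untreated against unstimulated PGE2-treated libraries the lowest value was 0.0727. The numbers of all tested genes called in the DESeq2 and blocked fits are given under the dependence on processing.

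Bead stimulation for 4 h changed all 6 genes in untreated cells, in both directions. The 4 genes Ccr7, S1pr1, S1pr4 and Cd7 fell, where 34.8% of 14205 tested genes fell, and Cd69 and Cd44 rose, where 31.7% did. All 6 passed 2-fold as well, against 23.2% of tested genes. S1pr1 fell most, from 250 ± 70.0 to 29.2 ± 4.80 CPM (SD, n = 4; log2 fold change -3.10, SE 0.191, edgeR adjusted p = 4.75e-08). S1pr4 fell from 240 ± 46.0 to 43.9 ± 4.95 CPM (-2.47, SE 0.133), Cd7 from 39.9 ± 9.90 to 12.8 ± 2.08 CPM (-1.64, SE 0.172) and Ccr7 from 1083 ± 22.6 to 467 ± 105 CPM (-1.23, SE 0.124). Cd69, the early activation antigen, rose from 41.2 ± 5.96 to 447 ± 117 CPM (3.43, SE 0.185, edgeR adjusted p = 2.31e-08). Cd44 rose from 112 ± 16.3 to 561 ± 106 CPM (2.31, SE 0.145, edgeR adjusted p = 5.43e-08). No gene of the 6 overlapped between these groups, where 66.5% of all tested genes passed in edgeR. The share of all genes without overlap was not computed.

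The stimulation comparison within PGE2-treated cells used the other 8 libraries. Again 4 genes fell, where 31.7% of 14507 tested genes did, and 2 rose, where 32.5% did. Of the 6 genes, 5 passed 2-fold, against 22.1% of tested genes, and the exception was Ccr7. Ccr7 fell from 1651 ± 22.8 to 1237 ± 254 CPM (SD, n = 4; log2 fold change -0.41, SE 0.117, edgeR adjusted p = 0.0107). S1pr1 fell by 2.28 on the log2 scale, S1pr4 by 1.78 and Cd7 by 1.13, and Cd69 and Cd44 rose by 3.34 and 1.91. Each of these stimulation comparisons shares its groups with a PGE2 comparison, so the values stand side by side and are not separate evidence.

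**Figure D3:**
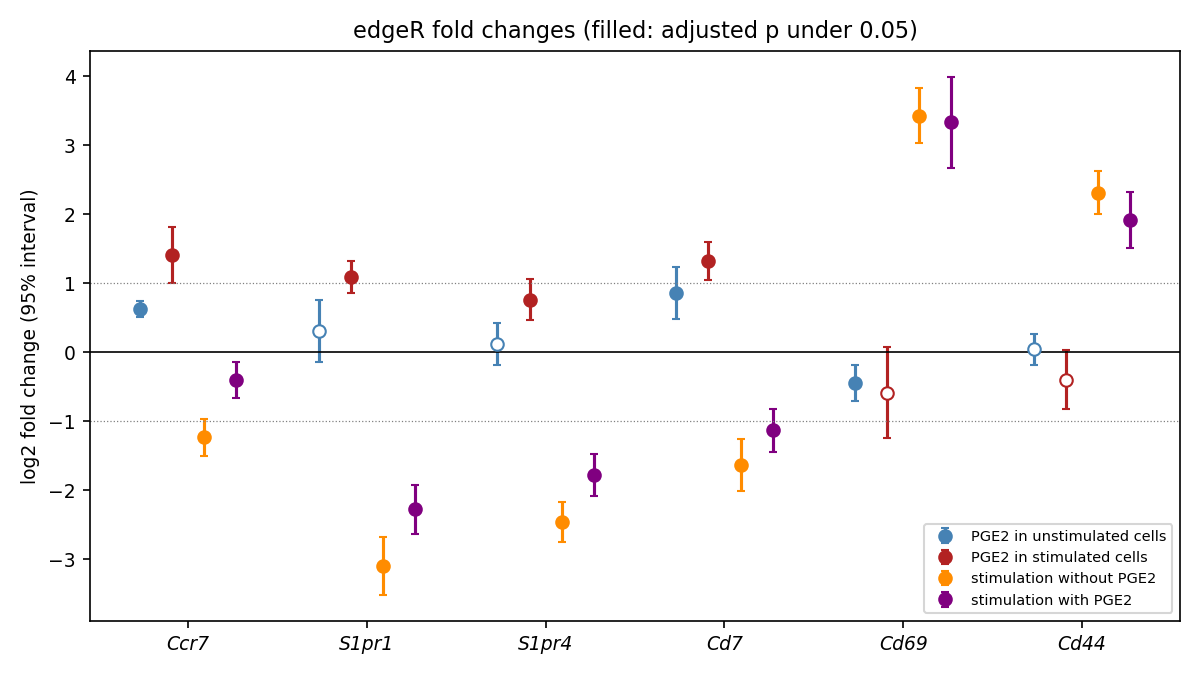
Log2 fold change in edgeR (vertical axis) of each gene in 4 comparisons, with 95% intervals, filled where the adjusted p was under 0.05; dotted lines mark 2-fold. Ccr7, S1pr1, S1pr4 and Cd7 lie above 0 for PGE2 and below 0 for stimulation, and the intervals of Cd69 and Cd44 for PGE2 in stimulated cells cross 0.

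The order of the 4 groups differed between genes. Ccr7 was highest in unstimulated PGE2-treated cells, followed by stimulated PGE2-treated (1237 CPM) and unstimulated untreated cells (1083 CPM), and the latter groups did not differ beyond their spread (log2 fold change 0.18, SE 0.122, edgeR adjusted p = 0.238). Cd7 followed the same groups at the top and bottom, with unstimulated untreated (39.9 CPM) and stimulated PGE2-treated cells (32.1 CPM) in between, which did not differ either (-0.33, SE 0.161, adjusted p = 0.102). The replicate block changed the latter call (-0.31, adjusted p = 0.0256), as did upper-quartile factors (adjusted p = 0.0442) and leaving out unstimulated untreated replicate 4 (-0.46, adjusted p = 0.0112). Without stimulated PGE2-treated replicate 1, Ccr7 passed as well (0.29, adjusted p = 0.0445). S1pr1 and S1pr4 were highest in the unstimulated groups, which did not differ for either gene without the block, then in stimulated PGE2-treated and lastly in stimulated untreated cells. Cd69 and Cd44 were highest in the stimulated groups, which overlapped. S1pr1 and S1pr4 were lower in stimulated PGE2-treated than in unstimulated untreated cells, by 2.03 and 1.71 on the log2 scale, and Cd69 and Cd44 higher, by 2.83 and 1.90. Thus 4 of the 6 passed in that comparison, where 58.4% of tested genes did. In the opposite corner comparison, of stimulated untreated with unstimulated PGE2-treated cells, all 6 passed, where 71.5% of tested genes did, from -3.40 for S1pr1 to 3.89 for Cd69.

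Levels of different genes were compared as fragments scaled for depth and gene length (FPKM). In unstimulated untreated cells Ccr7 was at 520 ± 8.52 FPKM (SD, n = 4), ahead of S1pr4 (95.5 ± 18.6), S1pr1 (78.0 ± 22.2), Cd7 (33.5 ± 8.44), Cd44 (15.7 ± 2.24) and Cd69 (6.02 ± 0.856). S1pr4 and S1pr1 overlapped there. In stimulated untreated cells the order was Ccr7 (224 ± 45.7 FPKM), Cd44 (78.9 ± 16.6), Cd69 (65.6 ± 18.5), S1pr4 (17.5 ± 1.68), Cd7 (10.8 ± 1.89) and S1pr1 (9.13 ± 1.70). Cd44 and Cd69 overlapped, as did Cd7 and S1pr1. Ccr7 thus stood first in both groups, and Cd69 moved from the lowest FPKM of the 6 to the third.

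Of 12 genes for S1P receptors and their signalling, 11 passed the count filter in stimulated cells. Among the 9 that are not S1pr1 or S1pr4, 0 were higher with PGE2 and 1 was lower, the β-arrestin gene Arrb2 (log2 fold change -0.33, edgeR adjusted p = 0.0272). At an unadjusted p under 0.05 these counts were 2 and 1, and in DESeq2 1 and 1. The median log2 fold change of those 9 was 0.07, against -0.01 over all tested genes. In stimulated cells 6.04% of all tested genes were higher and 3.8% lower, so 1 call in 9 stands near the background. In unstimulated cells 8 such genes were tested, 3 were higher and 1 lower, where 12.9% and 15.5% of all tested genes were: Arrb1 (0.74, adjusted p = 0.000926), the G protein gene Gna13 (0.54, adjusted p = 0.000197), S1pr2 (0.53, adjusted p = 0.00508) and Arrb2 (-0.46, adjusted p = 0.000854). Grk2, the kinase that desensitises S1PR1, showed 0.02 in stimulated (adjusted p = 0.911) and 0.04 in unstimulated cells (adjusted p = 0.784). S1pr5 was at most 0.211 CPM in any library and did not pass the filter.

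With stimulation, Grk2 fell by 0.76 on the log2 scale without PGE2 and by 0.74 with it, and Gnai2, the inhibitory G protein of these receptors, by 0.75 and 0.65. S1pr2, which couples to other G proteins and is linked to confinement rather than egress, rose by 1.27 and 0.64. Among these non-member signalling genes, 1 rose and 6 fell of 8 tested without PGE2, and 3 rose and 5 fell of 9 tested with it. Over all tested genes 31.7% rose and 34.8% fell without PGE2, and 32.5% rose and 31.7% fell with it. Of 10 genes that make, export or break down S1P, 6 were tested in each PGE2 comparison. In stimulated cells 0 passed in edgeR or DESeq2 and 2 had an unadjusted p under 0.05 in edgeR (median of the 6 0.21). In unstimulated cells 2 were higher, the S1P lyase Sgpl1 (0.47, adjusted p = 0.00632) and the kinase gene Sphk2 (0.26, adjusted p = 0.0242; median of the 6 0.36). At stimulation without PGE2 1 of 7 tested genes of this list rose and 3 fell, where 31.7% and 34.8% of all tested genes did. With PGE2 0 of 6 rose and 3 fell, where 32.5% and 31.7% did. Sgpp1 and Sphk2 fell by 0.41 and 0.28 without PGE2 and by 0.35 and 0.34 with it. Without PGE2 Mfsd2b fell by 0.80, and Sphk1 rose by 2.67, though only from 0.111 to 0.808 CPM.

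Lymph node entry genes other than Ccr7 went in both directions with PGE2. In stimulated cells 4 of 22 were higher and 5 lower, with a median of -0.10, where 6.04% of all tested genes were higher and 3.8% lower. In unstimulated cells 2 were higher and 7 lower, with a median of -0.18, where 12.9% and 15.5% of all tested genes were. The α4 integrin gene Itga4 (0.57), the P-selectin ligand gene Selplg (0.53) and the kinase gene Stk4 (0.47) were higher in stimulated cells by edgeR, and Rasgrp2, the exchange factor for Rap1, was lower (-0.48). St3gal6, a sialyltransferase of selectin ligands, fell in both states, by 0.61 in stimulated and by 1.34 in unstimulated cells, and Rasgrp2 fell by 0.62 in the latter. Cxcr4, the receptor for CXCL12, rose in unstimulated cells (0.58, adjusted p = 0.000261) and had a log2 fold change of 0.95 in stimulated cells without passing (adjusted p = 0.0805), though it passed with the replicate block (0.93, adjusted p = 2.68e-07).

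At stimulation without PGE2 14 of the 22 entry genes fell and 3 rose, where 34.8% of all tested genes fell and 31.7% rose. With PGE2 13 fell and 3 rose, where 31.7% fell and 32.5% rose. Rasgrp2 fell by 1.67 on the log2 scale, Itga4 by 1.52 and Cxcr4 by 1.47 without PGE2. With PGE2 the same genes fell by 1.49, 0.69 and 1.06. Gcnt1, an enzyme of selectin ligands, rose by 1.38 and 1.11.

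Of 12 transcription factors known for homing or tissue residency, 4 were higher and 2 lower with PGE2 in stimulated cells, with a median of 0.17, where 6.04% of all tested genes were higher and 3.8% lower. Klf2, the factor that drives S1pr1 transcription, rose from 30.2 ± 2.24 to 56.1 ± 7.03 CPM (SD, n = 4; log2 fold change 0.90, SE 0.0954, edgeR adjusted p = 0.000515). In unstimulated cells it was at 186 ± 34.8 CPM without and 195 ± 24.4 CPM with PGE2 (0.09, adjusted p = 0.668), and its interaction passed (0.83, SE 0.178, adjusted p = 0.0391). Zfp683, which encodes the residency factor Hobit, fell with PGE2 in both states, by 2.37 in stimulated (5.21 to 1.02 CPM) and by 2.56 in unstimulated cells (7.75 to 1.30 CPM). Prdm1, which encodes Blimp-1, another residency factor, fell by 0.74 in stimulated cells, and Satb1 (0.80) and Bach2 (0.56), factors of naive and memory T cells, rose there. In unstimulated cells Bach2 rose (0.58) and Tbx21 fell (by 0.41), giving 1 higher and 2 lower of 12, close to the 12.9% and 15.5% of all tested genes. With stimulation, Klf2 fell by 2.63 without and by 1.78 with PGE2 and Tcf7 by 1.94 and 1.53, while Zeb2 rose by 4.32 and 3.53 and Nr4a1, an early response gene of antigen receptor signalling, by 3.91 and 3.68.

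**Figure D4:**
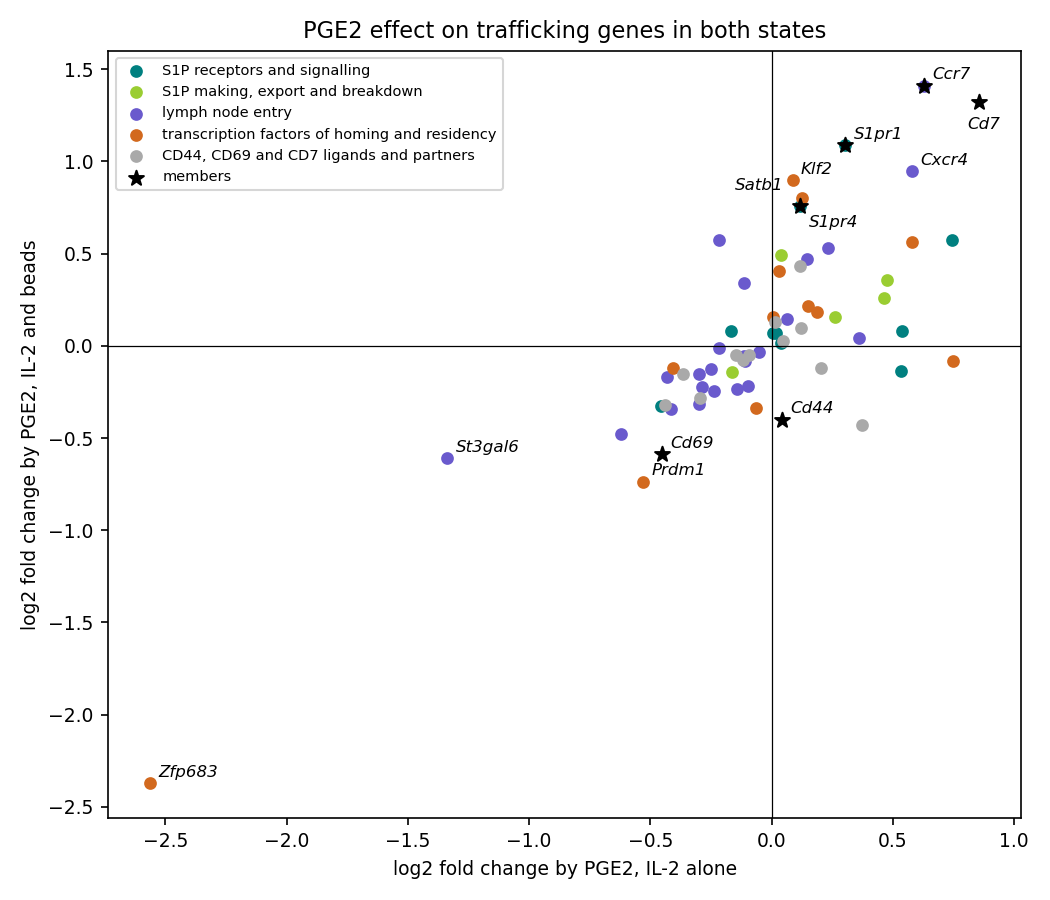
Log2 fold change by PGE2 in unstimulated (horizontal axis) and stimulated cells (vertical axis) for the 6 genes (stars) and the other trafficking genes tested in both, coloured by list. Ccr7 and Cd7 lie highest at the upper right, Klf2 lies at 0.09 and 0.90, and Zfp683 lies at the lower left.

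Of 13 ligands and partners of CD44, CD69 and CD7 tested in stimulated cells, 0 were higher with PGE2 and 1 was lower, Lgals9 (log2 fold change -0.28, edgeR adjusted p = 0.0210), a galectin that CD44 binds, against 1 and 2 at an unadjusted p under 0.05 and 0 and 2 in DESeq2. Over all tested genes 6.04% were higher and 3.8% lower there. Of 14 tested in unstimulated cells 0 were higher and 2 lower, against 0 and 4 at an unadjusted p and 0 and 2 in DESeq2, where 12.9% and 15.5% of all tested genes were higher and lower. Stimulation without PGE2 raised 4 of 13 and lowered 4, where 31.7% and 34.8% of all tested genes rose and fell. Among those that rose were the hyaluronidase gene Hyal2 (1.95), Cd74 (0.97), which pairs with CD44 as a receptor, and Myl12a (0.62), a myosin light chain. Among those that fell was Myl12b (-1.12, edgeR adjusted p = 0.000155), another myosin light chain. At stimulation with PGE2 6 of 15 rose and 3 fell, where 32.5% and 31.7% of all tested genes rose and fell. There Hyal2 rose by 2.20, Myl12a by 0.71 and Cd74 by 0.69, and Myl12b fell by 0.76.

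The RefSeq promoter windows (GRCm38.p6, 250 bases before to 50 after the start) matched 2 of the 6 genes, S1pr4 and Cd44, which moved in opposite directions with stimulation. They are shown with that of Klf2, which moved with the S1P receptors. The windows lie at chr10:81500088-81500387 (minus strand), chr2:102901616-102901915 (minus strand) and chr8:72318812-72319111 (plus strand). They were searched on both strands for TGACGTCA and TGACG, the full and the short cyclic AMP response element, the shorter being contained in the longer, and for CACCC, the core of the sites that KLF factors bind. Capitals mark matches, with GGGTG as CACCC on the opposite strand.
S1pr4: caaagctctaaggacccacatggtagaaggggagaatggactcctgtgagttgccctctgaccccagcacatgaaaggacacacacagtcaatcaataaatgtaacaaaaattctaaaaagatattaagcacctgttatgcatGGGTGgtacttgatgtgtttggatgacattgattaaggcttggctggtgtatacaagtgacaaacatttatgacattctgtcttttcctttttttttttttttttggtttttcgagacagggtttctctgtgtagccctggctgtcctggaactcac
Klf2: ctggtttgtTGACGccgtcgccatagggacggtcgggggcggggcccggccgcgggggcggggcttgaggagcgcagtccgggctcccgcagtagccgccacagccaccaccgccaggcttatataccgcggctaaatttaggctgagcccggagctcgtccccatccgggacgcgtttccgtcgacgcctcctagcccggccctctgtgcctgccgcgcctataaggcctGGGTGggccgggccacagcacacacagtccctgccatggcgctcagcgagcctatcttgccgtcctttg
Cd44: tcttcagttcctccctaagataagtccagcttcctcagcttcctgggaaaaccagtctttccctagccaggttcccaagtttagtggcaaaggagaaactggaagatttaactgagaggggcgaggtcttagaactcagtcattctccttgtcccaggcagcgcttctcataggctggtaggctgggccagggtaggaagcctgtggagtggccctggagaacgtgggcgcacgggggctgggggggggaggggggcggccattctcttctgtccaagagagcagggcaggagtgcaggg
The S1pr4 window held 1 CACCC match on the opposite strand, at bases 144 to 148. The Klf2 window held 1 TGACG match at bases 10 to 14 and 1 CACCC match on the opposite strand at bases 232 to 236, and the Cd44 window held no match to these letters. Of 32851 windows, 57.5% hold CACCC, 20.8% TGACG and 1.79% TGACGTCA on either strand, so the CACCC matches are common ones.

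Genes whose log2 CPM followed each of the 6 most closely over the 16 libraries were taken among the 9914 genes that averaged 5 CPM or more. For Ccr7 these were Stat4 (Pearson r = 0.989), the transcription factor of IL-12 signalling, Xdh (0.985) and Ikzf2 (0.984). For S1pr1 they were Scml4 (0.997), Tmem71 (0.996) and Rasa3 (0.995), and for S1pr4 Cdc25b (0.998), Il16 (0.998) and Tnfaip8l2 (0.997). Cd69 was followed by Eea1 (0.998), an early endosome protein, Umps (0.997), of pyrimidine synthesis, and Nfkbid (0.997). Cd44 was followed by Spry1 (0.997), Kdm6b (0.996), a histone demethylase, and Mdfic (0.996), and Cd7 by Klrd1 (0.982), which encodes CD94, Gimap4 (0.981) and Abcb1a (0.976). These are descriptions, with no test, over 16 libraries that share 4 groups.

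Once each group's mean was subtracted, the 6 genes fell into different sets. Over the 16 libraries, deviations of Cd69 and Cd44 went together (r = 0.956), as did those of S1pr1 and Cd7 (0.908). Ccr7 deviated against Cd69 (-0.845) and Cd44 (-0.825), and S1pr4 against the same pair (-0.754 and -0.79). S1pr1 and Cd69, opposed across groups (r = -0.952), had r = -0.03 within them, a value pooled over groups that differed. From stimulated untreated replicate 1 to 4 both fell, S1pr1 from 35.9 to 25.0 CPM and Cd69 from 589 to 324 CPM. From unstimulated untreated replicate 1 to 4 S1pr1 fell from 333 to 170 CPM, while Cd69 rose from 38.0 to 50.1 CPM. The pooled value thus does not show that the genes were unrelated in each group. These values describe 16 libraries with 4 group means removed, and libraries of the same number share part of their deviation.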

How the data were processed

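Per the labels and the study's methods, the authors prepared poly(A)-enriched libraries (NEBNext Ultra RNA), aligned reads to GRCm38/mm10 with HISAT2 2.0.5, counted reads per gene with featureCounts 1.5.0-p3 and used DESeq2 1.20.0. The deposited table holds raw counts and FPKM, which the authors computed from gene length and counts; strandedness is not given in the sources used here. Here, counts were tested with edgeR 4.0.16 (R 4.3.3): TMM factors, filterByExpr (minimum count 10), glmQLFit and glmQLFTest on the 8 libraries of each pair of groups, or all 16 for the interaction, with Benjamini-Hochberg adjustment over all tested genes. CPM values used TMM factors over the 16 libraries, and log2 CPM a prior count of 2. A call is an adjusted p under 0.05, and a differentially expressed gene also reaches 2-fold.

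The genes and gene lists were chosen with earlier results of these data known. All 6 genes passed every filter of the main tests. From each list the text names genes that passed at 2-fold with PGE2, then up to 4 with the largest change among those called and at a mean of at least 1 CPM, and Klf2, S1pr5, Grk2 and Cxcr4 whatever they showed (1 further gene is not reported here); 3 genes of highest r are named for each of the 6. Cemip2 of the CD44 list matched no row.

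Replicate numbers come from the labels and, judged by the correlation of same-numbered deviations from group means (over 0.1 for each number), pair the libraries in 4 comparisons: PGE2 in stimulated cells (0.19 to 0.423), PGE2 in unstimulated cells (0.137 to 0.444), stimulation without PGE2 (0.112 to 0.359) and stimulated PGE2-treated against unstimulated untreated (0.119 to 0.264). Replicates differed by more than sampling noise (chi-square per degree of freedom 8.46 to 56.8). The fits were run on simulated data with 200 changed genes, independent counts and the same dispersion for every gene. Deviations shared by replicate number were not simulated, so this checked the code and not the behaviour of the fits with such deviations. Alternatives were DESeq2 1.42.0, RLE and upper-quartile factors, other filters, the replicate block, 1 fit of all 16 libraries, limma 3.58.1 on log2(FPKM + 1) and log2(FPKM + 0.1) at a mean of at least 1 FPKM or unfiltered, and leaving out each library. The smallest count of a member in a library was 254, so counting error is small beside the spread between replicates. Exon overlaps came from the GENCODE annotation of GRCm38.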

Additional observations from a re-analysis of the deposited data

Results flagged for a closer look

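Among the 24 groups of 4 libraries checked for the 6 genes, 2 held a library set apart from the rest by Dixon's criterion, and chance alone marks about 1 in 20 groups. Both were unstimulated untreated replicate 4: Cd69 was at 50.1 CPM there against 37.9 to 38.7 CPM in the other 3, and Cd44 at 136 CPM against 102 to 107 CPM. The PGE2 effect on Klf2 differed between stimulated and unstimulated cells, by 0.83 on the log2 scale in the edgeR interaction (adjusted p = 0.0391). With the replicate block the Klf2 interaction also passed in edgeR (0.82, adjusted p = 0.00240). Whether the call holds with single libraries left out was not tested.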

How the results depend on the processing

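Over the 6 genes and 7 comparisons, 777 of 798 alternative values kept their direction and their side of the threshold, 15 passed newly, 3 no longer passed and 3 changed sign. The cause of these changes was not tested. The sign changes were of values that never passed: Cd44 with PGE2 in unstimulated cells without PGE2-treated replicate 4 (-0.035, leave-one-out range -0.035 to 0.15), and the Cd69 interaction without stimulated untreated replicate 1 (0.016) or stimulated PGE2-treated replicate 4 (0.079; leave-one-out range -0.36 to 0.079). With the replicate block, the number of the 6 past the threshold was 6 for PGE2 in stimulated cells and 5 for PGE2 in unstimulated cells. It was 3 for the interaction (Ccr7, S1pr1 and Cd7), and the block changed no call of the 6 in either stimulation comparison. Stimulation with PGE2 and the comparison of stimulated untreated with unstimulated PGE2-treated libraries fell short of the check of numbers. The interaction as a whole was not checked in that way. The interaction count was 1 (Ccr7) with DESeq2 and with no filter on low counts. Among all tested genes, the count for PGE2 in stimulated cells (1370) was 2066 with DESeq2, 5544 with the replicate block, 2161 in 1 fit of all 16 libraries and 679 with unfiltered limma on log2(FPKM + 1). For PGE2 in unstimulated cells (4122) it was 6938 with the replicate block. For the interaction (113) it was 234 with DESeq2, 408 with the replicate block, 43 and 53 with limma on log2(FPKM + 1) and log2(FPKM + 0.1), and 37 unfiltered.

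Leaving out 1 library gave 630 to 1854 genes for PGE2 in stimulated cells, moving by over 1.5 times without stimulated untreated replicates 1 (760), 2 (630) and 3 (792) and PGE2-treated replicates 3 (630) and 4 (843), while the count of the 6 stayed at 4. For PGE2 in unstimulated cells it gave 3154 to 4133 genes and 2 to 3 of the 6. For the interaction it gave 44 to 217 genes and 0 to 1 of the 6, moving by over 1.5 times without unstimulated untreated replicates 1 (71) and 2 (44), unstimulated PGE2-treated replicates 2 (56) and 3 (49), stimulated untreated replicates 1 (59), 2 (59), 3 (55) and 4 (74), and stimulated PGE2-treated replicates 2 (52) and 4 (217). For stimulated PGE2-treated against unstimulated untreated cells, 4 to 5 of the 6 passed. Upper-quartile factors moved the median of all genes by -0.13 for stimulation with PGE2 and by -0.11 for stimulated untreated against unstimulated PGE2-treated cells, with no change of call for the 6 there.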
